A study of Homo sapiens with 4 samples.

Results

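Cholesterol is built from acetyl-CoA through mevalonate, farnesyl pyrophosphate and squalene, and the transcripts of this route are raised together by the transcription factor SREBP2 when sterols in the endoplasmic reticulum are low. INSIG proteins hold SREBP2 and its escort SCAP in the endoplasmic reticulum when sterols are plentiful, and INSIG1 is itself a target gene, so it can act as a brake on the route. STARD4 is a small cytosolic protein with a START lipid-binding domain that carries sterol between membranes, and its gene is a known SREBP2 target.

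Expression of 7 genes of this system was examined: STARD4, the enzyme genes HMGCS1, IDI1, SQLE and DHCR7, the SREBP2 gene SREBF2, and INSIG1. They were taken by symbol from the platform annotation, and all 7 had a named probe set, 1 each, and passed the filter on low values, among 12755 genes tested of 14884 with a named probe set. STARD4, HMGCS1 and INSIG1 had been picked with their changes in this same comparison known, so the values of the 7 are given as a description and not as a test. The question put to them was whether STARD4, HMGCS1 and INSIG1 move as 1 SREBP2 programme or in opposite directions.

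The arrays came from MDA-MB-231Br, written MDA-MB-231 in the sample titles, a derivative of the established mesenchymal breast cancer line MDA-MB-231. There were 2 arrays of cells carrying the control hairpin (shControl) and 2 of cells carrying a hairpin against YTHDF3 (shYTHDF3), a cytoplasmic reader of N6-methyladenosine on RNA. All cells had been transduced with lentivirus and selected with puromycin, in serum-containing DMEM; the number of hairpins, the time after selection and the sterol state of the medium were not given in the sources used here. The labels do not say whether arrays of a group are separate cultures, so the spread between them may be technical. The level of YTHDF3 itself was not analysed here, and the hairpin labels are therefore unchecked.

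Deposited values are log2 expression per probe set, and a change is the shYTHDF3 mean minus the shControl mean on that scale. Array medians lay between 3.20 and 3.22, and over the tested genes arrays correlated at 0.992 within each group and at 0.986 to 0.987 between groups. All 6 mesenchymal markers with a named probe set (VIM, CD44, AXL, MSN, ZEB1, FN1) lay above the median probe set. So did 6 of the 8 named luminal markers, so that count does not tell the 2 lists apart. The sum of the mesenchymal markers on the linear scale, returned to log2, was 13.16 to 13.28 in control and 13.07 on both knockdown arrays. Most of that sum was MSN, followed by AXL, with changes of -0.16 and -0.18, while VIM and CD44 had 0.05 and 0.17. FN1, fibronectin, fell from 7.38 to 5.89, a log2 change of -1.50 (adjusted p = 0.012 from limma), and ZEB1 had -0.47 without passing. ESR1 and PGR, the hormone receptors that the line lacks, stood at 2.84 and 2.66 in control arrays, close to the filter of 2.54. The luminal list nonetheless held KRT18 at 8.45, EPCAM at 6.70, FOXA1 at 4.90 and GATA3 at 4.60 in control arrays, so its markers are not all low. Summed in the same way, the 8 named luminal markers gave 9.23 to 9.48 in control and 9.60 to 9.61 in knockdown arrays, most of it KRT18, which had a change of 0.50, while KRT19 and KRT8 had -0.40 and -0.11 and EPCAM 0.0036. The 3 named leukocyte and stromal markers gave 10.66 to 10.67 and 10.42 to 10.57, nearly all of it CD68, with CD14 and PECAM1 near the filter. The part of these shifts in the sterol results was not tested. In such bulk samples fewer cells of a type and less RNA per cell cannot be told apart.

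Promoter sequence is shown first for the 3 genes the question names and for SREBF2, because the SREBP2 route is defined by elements close to the start of its genes. Each stretch is the 250 bases before the annotated start, from RefSeq on GRCh38.p14, on the gene's strand, 5′ to 3′. Where a gene has several starts the most upstream was taken. Capitals mark TCACNCCAC, a form of the sterol element bound by SREBP2, and CCAAT, the box bound by its partner NF-Y; both were searched on both strands, so that CCAAT on the opposite strand reads ATTGG. Another motif, TGATGNAA, the composite element bound by ATF4, was searched in the same way.
STARD4, chr5:111512536-111512785, minus strand: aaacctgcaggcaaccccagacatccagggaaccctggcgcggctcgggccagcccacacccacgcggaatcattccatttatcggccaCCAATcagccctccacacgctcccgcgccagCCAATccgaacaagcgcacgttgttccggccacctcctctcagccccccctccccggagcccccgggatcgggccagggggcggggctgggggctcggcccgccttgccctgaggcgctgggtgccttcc
HMGCS1, chr5:43313413-43313662, minus strand: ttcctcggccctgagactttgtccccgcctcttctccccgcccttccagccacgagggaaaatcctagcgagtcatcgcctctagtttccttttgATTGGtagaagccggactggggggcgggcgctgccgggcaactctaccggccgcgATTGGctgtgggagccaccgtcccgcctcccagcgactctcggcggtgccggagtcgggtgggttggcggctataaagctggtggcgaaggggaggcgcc
INSIG1, chr7:155297628-155297877, plus strand: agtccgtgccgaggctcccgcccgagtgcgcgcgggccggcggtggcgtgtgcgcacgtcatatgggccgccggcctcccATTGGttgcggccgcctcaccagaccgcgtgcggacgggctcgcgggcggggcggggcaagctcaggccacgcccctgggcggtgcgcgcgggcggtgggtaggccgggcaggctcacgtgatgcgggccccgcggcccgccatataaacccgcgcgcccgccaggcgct
SREBF2, chr22:41832855-41833104, plus strand: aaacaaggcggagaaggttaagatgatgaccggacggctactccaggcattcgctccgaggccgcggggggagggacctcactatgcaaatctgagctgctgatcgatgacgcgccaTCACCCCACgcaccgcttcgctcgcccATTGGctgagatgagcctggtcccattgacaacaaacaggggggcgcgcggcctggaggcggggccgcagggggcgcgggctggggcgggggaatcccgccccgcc

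The SREBF2 stretch held a sterol element in these letters, 133 to 125 bases before the start, with 1 CCAAT box 106 to 102 bases before it. STARD4 held 2 CCAAT boxes, with first bases 161 and 130 bases before the start. HMGCS1 held 2, at 155 and 100 bases, and INSIG1 held 1, at 170 bases. The table had promoters for 6 of the 7 genes, with SQLE the gene not matched; SREBF2 was the only 1 of the 6 with TCACNCCAC, and all 6 had a CCAAT box in at least 1 promoter, against 37.0% of 27305 genes. Among the 15 matched cholesterol synthesis enzymes 13 had a CCAAT box and 0 had TCACNCCAC, which was found for 1 of the 71 matched genes of the sterol lists and for 1.09% of all genes. TCACNCCAC occurred in 0.883% and TGATGNAA in 3.14% of all 35116 promoters, and TGATGNAA in none of the promoters of the 6 genes. Only TCACNCCAC was searched as a sterol element, so a gene without it here may still hold another form. All these results are matches of letters in a short window. STARD4, which was lower in the knockdown arrays, and INSIG1, which was higher, both carried the CCAAT box in it.

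STARD4, the sterol carrier, had the largest change of the 7. Its log2 expression was 9.59 and 9.48 on the control arrays and 8.14 and 8.06 on the knockdown arrays. The control arrays were both high, the knockdown arrays both low, and the groups lay far from overlapping. Its mean fell from 9.54 ± 0.07 to 8.10 ± 0.06 (SD, n = 2 each), a log2 change of -1.44 (SE 0.13, 95% interval -1.74 to -1.13) or 2.71-fold. Over the 4 pairings of a knockdown with a control array the change ran from -1.53 to -1.34. It was the 33rd largest fall of the 12755 tested genes and the only 1 of the 7 past an adjusted p of 0.05 from limma, where 0.753% of all tested genes passed (0.666% as lower and 0.0862% as higher). Since STARD4 was chosen on this contrast, nothing is read from that count. The call was lost without shControl replicate 1 (log2 change -1.38) and without shControl replicate 2 (-1.49); no tested gene passed in either of those fits with limma, where 1370 and 1392 had an unadjusted p under 0.05. With the replicate number as a block the change was the same and the call was also lost.

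**Figure D1:**
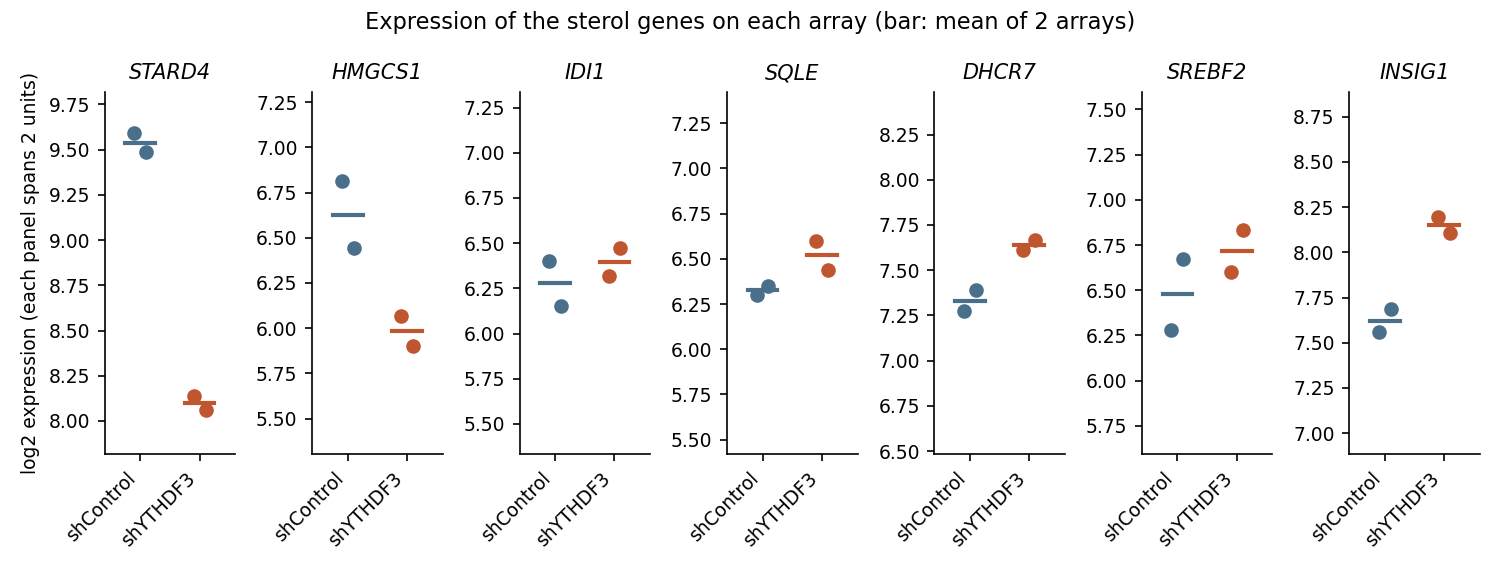
Log2 expression of the 7 sterol genes on each array (y axis, 2 log2 units in every panel), with control arrays in blue, knockdown arrays in orange and bars at the mean of 2 arrays. STARD4 and HMGCS1 lie lower in both knockdown arrays, INSIG1, DHCR7 and SQLE lie higher in both, and IDI1 and SREBF2 overlap.

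HMGCS1 encodes the cytosolic HMG-CoA synthase, which makes HMG-CoA, the substrate of the rate-limiting reductase. It stood at 6.81 and 6.44 on the control arrays and at 6.07 and 5.90 on the knockdown arrays. Both knockdown arrays were below both control arrays, but the control arrays lay 0.37 apart, more than the 0.16 between the knockdown arrays. Its means were 6.63 ± 0.26 and 5.98 ± 0.11 (SD, n = 2 each), a log2 change of -0.64 (SE 0.16, 95% interval -1.03 to -0.26), or 1.56-fold lower. It did not pass the threshold over all genes. The 4 array pairs gave -0.91 to -0.38, so its direction was that of STARD4 in every pair, at a smaller size.

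INSIG1, the brake on SREBP2 processing, had the opposite sign. Its values were 7.56 and 7.68 on the control arrays and 8.20 and 8.11 on the knockdown arrays. Both knockdown arrays were higher, and the gap between groups exceeded the gap within either. Means of 7.62 ± 0.09 and 8.15 ± 0.06 (SD, n = 2 each) gave a log2 change of 0.53 (SE 0.13, 95% interval 0.22 to 0.84), or 1.44-fold higher. INSIG1 did not pass over all genes with limma, but passed when the variance was fitted with an intensity trend, where 2.94% of all tested genes did. Its array pairs ran from 0.42 to 0.64.

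On these arrays STARD4 and HMGCS1 were lower and INSIG1 higher in the knockdown, and only STARD4 passed the threshold. Each sign held in all 4 array pairs, as it must for any gene whose groups do not overlap. That was so for 45.5% of all tested genes, and the 3 had been picked with their changes known. The change of STARD4 minus that of INSIG1 was -1.97 on the log2 scale, and -2.09 to -1.85 over the array pairs. HMGCS1 minus INSIG1 was -1.17, and -1.45 to -0.89 over the pairs. STARD4 and HMGCS1 shared a direction but not a size, with a difference of -0.79 between their changes and -0.97 to -0.62 over the pairs. These are differences between changes, not between levels, because levels of different probe sets cannot be compared.

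**Figure D2:**
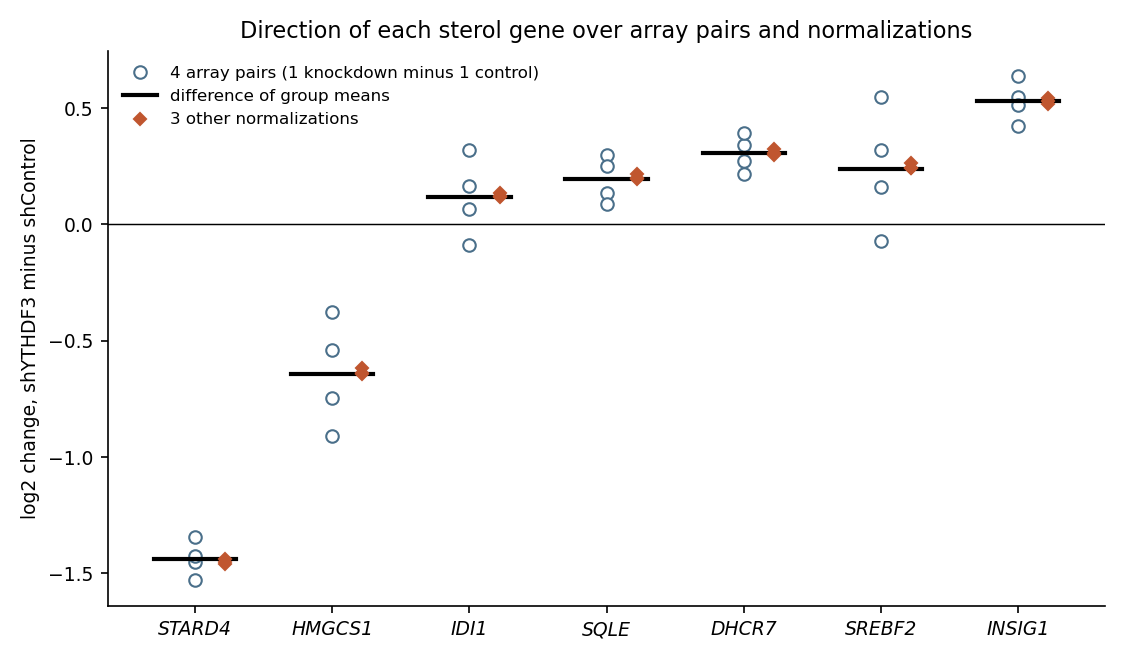
Log2 change of each of the 7 genes (y axis) as the difference of group means (black bar), in each of the 4 pairings of a knockdown with a control array (open circles) and after 3 other normalizations (orange diamonds). STARD4 and HMGCS1 stay below 0 and INSIG1, DHCR7 and SQLE above it in every pairing, while IDI1 and SREBF2 each cross 0 in 1 pairing.

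The remaining enzymes had smaller changes, of which only that of DHCR7 had an interval clear of 0. IDI1, the isomerase that makes dimethylallyl pyrophosphate, read 6.40 and 6.15 on the control arrays and 6.32 and 6.47 on the knockdown arrays. Its groups overlapped, with a log2 change of 0.12 (SE 0.15, 95% interval -0.23 to 0.46). Without shControl replicate 2 its change was -0.0099, so no direction can be given for it. SQLE, squalene epoxidase, the first oxygen-requiring step after squalene, read 6.30 and 6.35 on the control arrays and 6.60 and 6.44 on the knockdown arrays. The groups did not overlap, but their nearest arrays were 0.09 apart against 0.16 between the knockdown arrays, and the log2 change was 0.19 (SE 0.13, 95% interval -0.12 to 0.50). DHCR7, which reduces 7-dehydrocholesterol to cholesterol, read 7.27 and 7.39 on the control arrays and 7.61 and 7.67 on the knockdown arrays. Its arrays were tight within groups and apart between them, with a log2 change of 0.31 (SE 0.13, 95% interval 0.0034 to 0.61).

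SREBF2, the gene of the transcription factor itself, read 6.28 and 6.67 on the control arrays and 6.60 and 6.83 on the knockdown arrays. The first control array was low and the groups overlapped, since the second control array exceeded the first knockdown array. Its log2 change was 0.24 (SE 0.17, 95% interval -0.16 to 0.64), and 0.05 without shControl replicate 1. SREBP2 is controlled mainly by cleavage of its protein, which the arrays do not measure. In all, the arrays did not overlap for 5 of the 7 genes, 2 lower and 3 higher in the knockdown, where 45.5% of all tested genes did not overlap (22.8% lower and 22.6% higher). The median change of the 7 was 0.19, against 0.0040 over all tested genes.

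**Figure D3:**
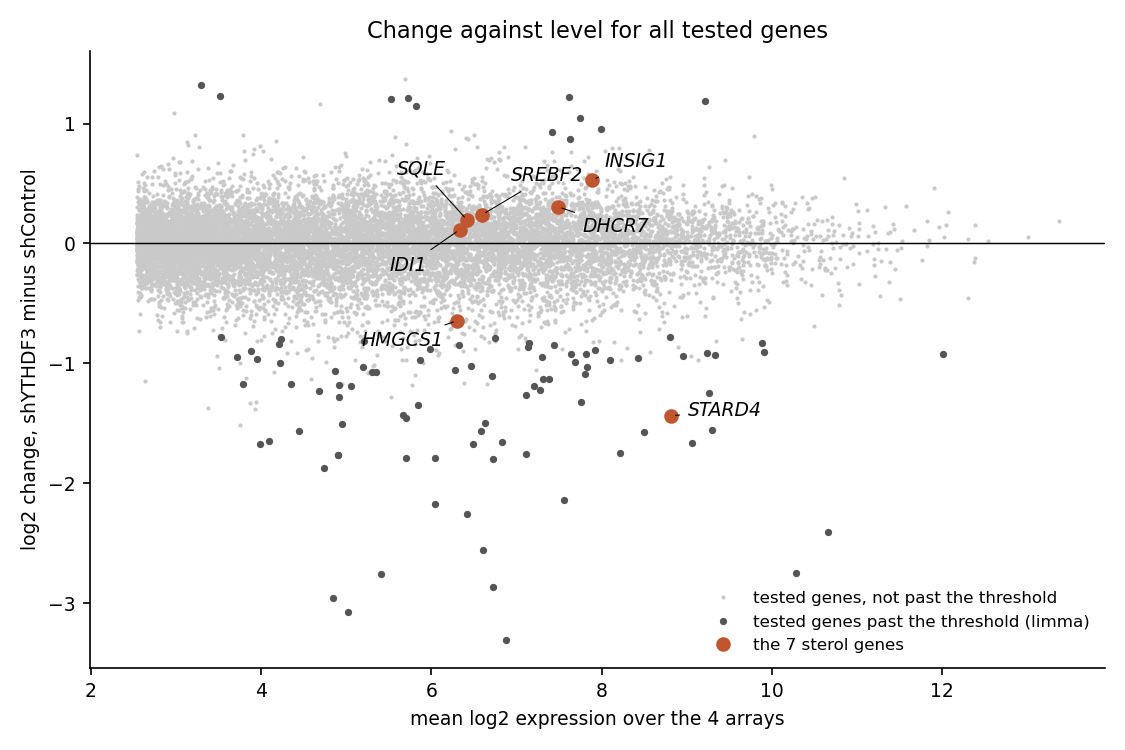
Log2 change (y axis) against mean log2 expression over the 4 arrays (x axis) for the 12755 tested genes, with genes past the threshold in dark grey and the 7 sterol genes in orange. STARD4 lies at -1.44 among the genes past the threshold, while HMGCS1 at -0.64 and INSIG1 at 0.53 lie at opposite edges of the grey cloud.

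The rest of the pathway was read from 10 lists of textbook membership, which together had 55 tested genes of 90, counting the 7 above; 32 had no named probe set and are not analysed here, and 3 were below the filter. STARD4 was the only 1 of the 55 past the threshold, where 0.753% of all tested genes passed. An unadjusted p under 0.05 from limma was reached by 7 lower and 9 higher genes of the 55, and by 8.48% and 6.24% of all tested genes. Arrays did not overlap for 11 lower and 17 higher genes of the 55, beside 22.8% and 22.6% of all tested genes. The median over the 55 was 0.04. Without the 7 genes, some of them picked on this contrast, 48 tested genes remained. Of these, 5 lower and 7 higher had an unadjusted p under 0.05 from limma. Arrays did not overlap for 9 lower and 14 higher of the 48, and their median was 0.03.

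Between acetyl-CoA and farnesyl pyrophosphate, 7 of 8 genes were tested and none passed. HMGCS1, lower, was the 1 at an unadjusted p under 0.05 from limma, which 8.48% of all tested genes reached as lower and 6.24% as higher. The other genes of this stretch lay between -0.04 and 0.34. FDPS, farnesyl pyrophosphate synthase, had a log2 change of 0.34 (SE 0.16) and ACAT2, the acetyl-CoA thiolase, one of 0.26 (SE 0.13), with adjusted p-values of 0.38 and 0.41 from limma. A second, dimmer probe set of FDPS had 0.13. MVK, mevalonate kinase, had 0.25 (SE 0.23), carried by shYTHDF3 replicate 1 at 5.65 beside 4.90 to 5.06 on the other arrays. PMVK and MVD, the kinase and decarboxylase that follow, were at -0.02 and -0.04. The list had 4 positive and 3 negative genes and a median of 0.12.

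From squalene to cholesterol, 7 of 12 genes were tested and none passed. An unadjusted p under 0.05 from limma was reached by 1 lower (HSD17B7) and 1 higher (DHCR7), beside 8.48% and 6.24% of all tested genes. HSD17B7, which reduces a keto group in the removal of the sterol's C4 methyl groups, had the largest change, from 4.60 and 4.17 on the control arrays to 2.84 and 3.69 on the knockdown arrays. Its log2 change was -1.12 (SE 0.28), with an adjusted p of 0.14 from limma. The first knockdown array, at 2.84, was near the filter of 2.54. The knockdown arrays of HSD17B7 lay further from each other than the nearest arrays of the groups did. MSMO1 and NSDHL, which act in the same demethylation, were lower on both knockdown arrays, as were 22.8% of all tested genes. Their changes were -0.28 (SE 0.13) and -0.25 (SE 0.13), with adjusted p-values of 0.39 and 0.42 from limma. EBP, a sterol isomerase, was at -0.25 with overlapping arrays. The list's median was -0.25, and 0.0064 without shControl replicate 2. Over both stretches of the route 7 of 14 tested enzymes were positive and 7 negative, with a median of 0.02.

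**Figure D4:**
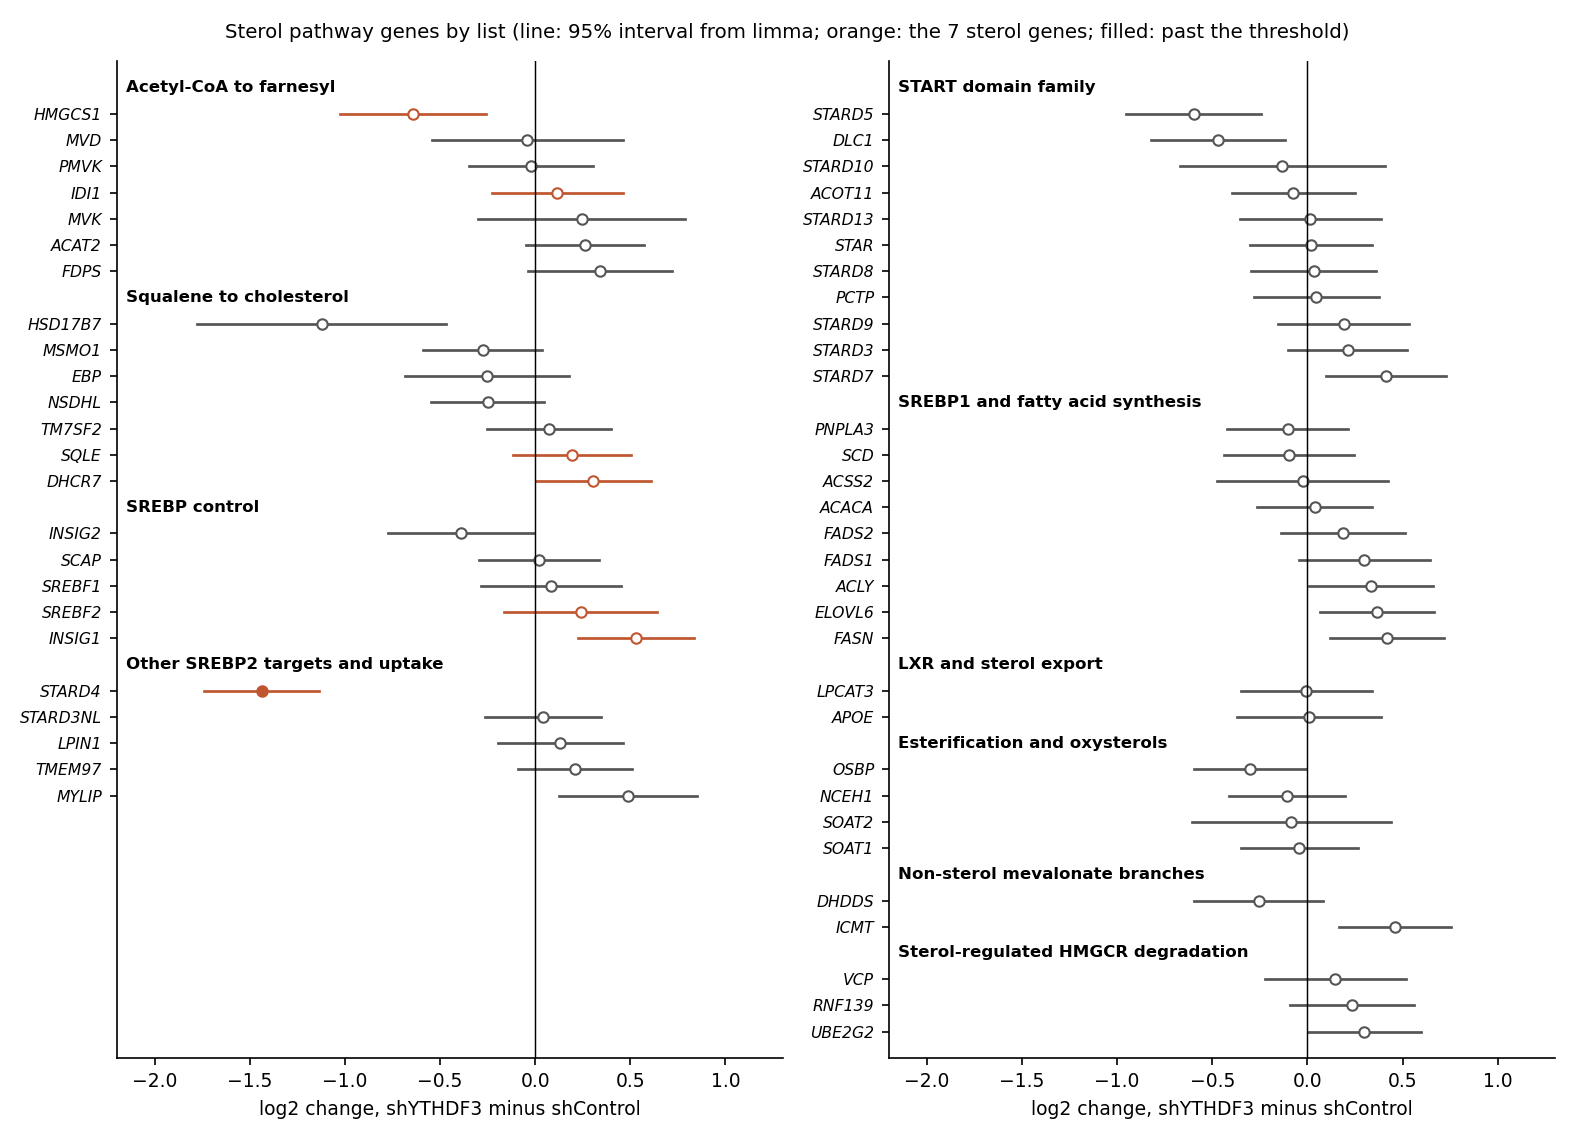
Log2 change (x axis) with its 95% interval from limma for the 55 tested genes of the sterol lists, grouped by list, with the 7 sterol genes in orange and genes past the threshold filled; STARD4, in 2 lists, is drawn once. STARD4 is the only filled point, and the enzyme lists hold points on both sides of 0.

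Among the regulators of SREBP processing, 5 of 7 were tested, and the INSIG genes differed in sign. INSIG2, the paralogue with the same role in holding SCAP, read 7.07 and 6.77 on the control arrays and 6.66 and 6.39 on the knockdown arrays. Its arrays did not overlap, and the log2 change was -0.39 (SE 0.16, adjusted p = 0.33 from limma), against 0.53 for INSIG1. SCAP, the escort, was at 0.02, and SREBF1, which encodes SREBP1, at 0.08, both with overlapping arrays. No member of this list other than the INSIG genes had an unadjusted p under 0.05 from limma. Of all tested genes 8.48% had such a p as lower and 6.24% as higher.

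Of the other SREBP2 targets and uptake genes, 5 of 10 were tested. Besides STARD4 all 4 were positive, as were 6474 of all 12755 tested genes. MYLIP, the ligase that degrades the LDL receptor and is induced by LXR, had a log2 change of 0.49 (SE 0.16) and an adjusted p of 0.22 from limma, with both knockdown arrays higher. TMEM97, a sterol-regulated membrane protein also known as the sigma-2 receptor, had 0.21 (SE 0.13), and LPIN1, a phosphatidate phosphatase, 0.13 (SE 0.14). STARD3NL, which tethers endosomes to the endoplasmic reticulum, had 0.04.

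STARD4 had the largest change of its protein family too. Of 12 tested START domain genes it alone passed, where 0.753% of all tested genes did, and it had been chosen on this contrast. The family's median was 0.02, and ran from -0.05 to 0.05 with 1 array left out, so the family as a whole has no direction here. STARD5, its close relative, which binds sterol or bile acids, read 4.02 and 4.35 on the control arrays and 3.58 and 3.59 on the knockdown arrays. That is a log2 change of -0.60 (SE 0.15, adjusted p = 0.14 from limma), in the direction of STARD4 at a low level. DLC1, which also has a START domain, had -0.47 (SE 0.15, adjusted p = 0.22 from limma). STARD7, which carries phosphatidylcholine to mitochondria, was higher on both knockdown arrays, from 9.17 ± 0.13 to 9.59 ± 0.04 (SD, n = 2 each), a log2 change of 0.41 (SE 0.13, adjusted p = 0.23 from limma). The other 8, among them STAR and STARD3, ran from -0.13 to 0.21.

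Of the fatty acid genes under SREBP1, 9 were tested and none passed. Positive changes were seen for 6 of the 9, beside 6474 of all 12755 tested genes. Limma gave 3 higher and 0 lower genes of the 9 at an unadjusted p under 0.05, beside 6.24% and 8.48% of all tested genes. FASN, fatty acid synthase, had means of 7.42 ± 0.07 on control and 7.84 ± 0.04 on knockdown arrays (SD, n = 2 each), a log2 change of 0.42 (SE 0.13, adjusted p = 0.20 from limma). ELOVL6, which elongates palmitate, had 0.37 (SE 0.13), ACLY, which makes cytosolic acetyl-CoA, 0.33 (SE 0.14), and FADS1, the delta-5 desaturase, 0.30 (SE 0.15). SCD, the stearoyl-CoA desaturase, had -0.10 at its bright probe set and 0.49 at a dim second one near the filter. FADS2 had 0.19, ACACA 0.04, ACSS2 -0.03 and PNPLA3 -0.10. The list had 6 positive and 3 negative genes and a median of 0.19, which moved to 0.075 when shControl replicate 1 was left out and to 0.30 when shControl replicate 2 was.

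The smaller branches had no gene past the threshold either. Among esterification and oxysterol genes 4 of 8 were tested. OSBP, which exchanges sterol for phosphatidylinositol 4-phosphate at the Golgi, had -0.30 (SE 0.13, adjusted p = 0.33 from limma). SOAT1, the main cholesterol esterifying enzyme of most cells, had -0.04, SOAT2 -0.08 and NCEH1, a cholesteryl ester hydrolase, -0.11. Of the non-sterol mevalonate branches 2 of 8 were tested. ICMT, which methylates prenylated proteins, stood at 8.54 on both control arrays and at 9.04 and 8.97 on the knockdown arrays, a log2 change of 0.46 (SE 0.13, adjusted p = 0.17 from limma). With an intensity trend in the variance it passed, as INSIG1 and 2.94% of all tested genes did. DHDDS, of dolichol synthesis, had -0.26 (SE 0.14). The 3 tested genes of sterol-regulated reductase degradation were all positive: UBE2G2 at 0.30, RNF139 at 0.23 and VCP at 0.15. So were 6474 of all 12755 tested genes. Of the LXR and export list 2 of 7 were tested, both within 0.01 of 0.

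By profile over the 4 arrays, taken as Euclidean distance between centred log2 values, the genes nearest to STARD4 were CDK2AP2 (distance 0.10), MSR1 (0.12) and ASNS, asparagine synthetase (0.16). Their log2 changes were -1.35, -1.50 and -1.32, and none is a gene of the sterol lists. Nearest to INSIG1 were SHMT1 (0.03), IGFBP1 (0.04) and MAP3K3 (0.05), with changes of 0.52, 0.49 and 0.54. Nearest to HMGCS1 were IMPACT (0.06), ZNF23 (0.06) and ZNF844 (0.07), with changes of -0.64, -0.59 and -0.61. With 4 arrays such likeness mostly restates a similar difference between the groups.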

How the data were processed

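Gene expression was measured on 4 Affymetrix arrays, 2 per group, grouped by sample title. The deposited table holds log2 values per probe set made by the authors, whose processing notes name RMA; settings, genome build and annotation were not given in the sources used here. This method equalises the arrays and compresses weak signals, which can understate changes of dim genes. The platform annotation gave 1 gene symbol to 16098 of 53617 probe sets, several to 0 and none to 37519. All 16098 were matched to RefSeq by Entrez identifier.

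The probe set of highest mean stood for each gene, which was tested at or above the 30th percentile over all rows (2.54). Groups were compared over all 12755 genes with limma 3.58.1 in R 4.3.3 (lmFit, eBayes, 2-sided, no covariates, Benjamini-Hochberg, threshold 0.05; 2 residual and 5.30 prior degrees of freedom). A permutation of 2 against 2 arrays cannot go below a p of 0.333, so calls rest on the spread shared across genes; the small number of arrays limits precision. The script was tested on simulated data: for this comparison, over 12755 genes, it recovered 74% of 100 genes changed by 1 and 100% of 100 changed by 2 on the log2 scale. Of its 183 calls 9 were false. These shares hold for the simulated noise and do not measure how many real changes were found here.

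The 7 genes, the lists and the motifs were chosen with earlier results of these data known. Besides the 7, the text names list genes past the threshold, up to 4 of smallest p in each list, and the 3 nearest profiles of STARD4, INSIG1 and HMGCS1; other genes were named after their values were seen. The alternatives were other filters, other probe set rules, 3 normalizations, the variance model, the threshold, a replicate block and leaving out each array.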

Additional observations from a re-analysis of the deposited data

How the results depend on the processing

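STARD4 kept its direction under all 14 alternatives, at -1.49 to -1.38, and HMGCS1 (-0.83 to -0.46), INSIG1 (0.47 to 0.59), DHCR7 (0.25 to 0.37), SQLE (0.11 to 0.27) and SREBF2 (0.05 to 0.43) kept theirs. Most of these alternatives could not change a direction. With 1 probe set per gene, the filters, probe set rules, variance models and block leave the difference of means as it was. Leaving out 1 array cannot reverse a gene whose groups do not overlap, so for such genes only the 3 normalizations could have. IDI1 reversed to -0.0099 without shControl replicate 2, in a range of -0.0099 to 0.24 with 1 array left out. STARD4, at -1.44, was not called with all 53617 probe sets as separate rows (adjusted p = 0.097 from limma) or with the replicate block (adjusted p = 0.065 from limma), and with 1 array left out (-1.49 to -1.38) its adjusted p from limma ran from 0.040 to 0.20; it was the 1 sterol gene called under the other settings, apart from the intensity trend. With that trend INSIG1 passed at 0.53 (adjusted p = 0.033 from limma). The sterol lists together then had 3 genes called, among them 1 of SREBP control and 1 of the non-sterol branches, beside 2.94% of all tested genes.

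The count of genes called with limma, 96, was 375 with an intensity trend, 250 at an adjusted p under 0.1, 167 with the filter at the 50th percentile, 17 with all probe sets as separate rows and 11 with the replicate block; with 1 array left out it was 0 to 36. The count for the sterol lists together, for the START family and for other SREBP2 targets, 1 each, was 0 with all probe sets as separate rows and 0 with the replicate block, and 0 to 1 with 1 array left out. Calls with 1 array left out assume that the lone array of a group varies like the other group, which list medians do not need. In those fits the medians ran from 0.039 to 0.22 for acetyl-CoA to farnesyl and -0.25 to 0.0064 for squalene to cholesterol. They ran from 0.080 to 0.24 for other SREBP2 targets, -0.19 to -0.087 for esterification and 0.075 to 0.30 for SREBP1 and fatty acid synthesis. For the START family the range was -0.047 to 0.045, and for all lists together 0.032 to 0.095. Adjusted p-values from limma did not all rise with the replicate block. That of STARD4 went from 0.0047 to 0.065 and that of SREBF2 from 0.57 to 0.44. The cause of the shifts between settings was not tested.

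Deviations of same-numbered arrays correlated at 0.04 over genes. The labels do not say whether such arrays share a day or culture, so whether replicate numbers pair the arrays is not known. With 2 arrays a group, a missed call does not show that a gene was unaffected: the median SE of a log2 change was 0.142.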
